A study of Mus musculus with 8 samples.

Results

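Integrins, laminins and cadherins are the receptors and matrix proteins by which cells hold on to their surroundings, and 31 genes of these families were followed among the 17823 genes counted in mouse macrophages. They are the genes named Itga, Itgb, Lama, Lamb, Lamc or Cdh with a digit, together with Itgal and Itgae, that had 10 or more counts in at least 4 libraries. The names without the count minimum give 51 genes. Itgb3, Itgam, Itgax and the Itgb1bp genes were left out by the rule. Of the 31, 5 are leukocyte integrin chains, 12 are chains of matrix-binding integrins, 7 are laminin chains and 6 are cadherins. The remaining gene, Itgb3bp, shares the name but encodes a centromere protein and is not an integrin.

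The macrophages were grown from C57BL/6 bone marrow for 7 days with 20 ng of recombinant murine M-CSF, the growth factor of the lineage. All were treated with 1 µg/ml of lipopolysaccharide (LPS) from Escherichia coli, which activates macrophages through Toll-like receptor 4. Polyadenylated RNA was sequenced from 4 libraries of Il19-tdT positive and 4 of Il19-tdT negative cells, numbered 1 to 4 in both groups. The tdT label reports Il19, a cytokine gene of the Il10 family, and the groups ask how cells with and without the reporter differ. The sources used here do not say how the reporter was built, how the cells were separated, how long LPS was present or how many mice were used.

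An integrin is a pair of an alpha and a beta chain spanning the membrane. The beta2 chain pairs with leukocyte alpha chains to bind ICAM molecules on other cells, whereas most beta1 and alpha-v integrins bind collagens, laminins or fibronectin. Laminins are secreted trimers of an alpha, a beta and a gamma chain that form the mesh of basement membranes. Classical cadherins join like cells to each other through catenins and are best known from epithelia, endothelium, nerve and mesenchyme.

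The libraries held 49850537 to 58516454 counts, so that 3 counts equalled 0.0490 to 0.0696 CPM (counts scaled to a common library size) in a library, a limit that covers counting error only. Il19 was at 183, 145, 177 and 234 CPM in positive replicates 1 to 4 and at 10.4, 9.17, 17.0 and 11.3 CPM in negative replicates 1 to 4, without overlap. All 8 macrophage markers examined were present, for example Adgre1 at 3596 ± 654 CPM in the positive and 3973 ± 919 CPM in the negative libraries (SD, n = 4 each), and 2 of the 8 rose (Mertk and C5ar1). The 14 stromal markers examined, none of them at 0 in all libraries, summed to 67.3 to 170.4 CPM in the positive and 282 to 2602 CPM in the negative libraries, and 12 of 13 tested fell. The 8 osteoclast markers summed to 127 to 326 and 108 to 2837 CPM, and 3 of 7 tested fell. The 8 neutrophil markers summed to 372 to 531 and 84.6 to 643 CPM, and of 5 tested S100a9, Ngp and Ltf fell while S100a8 rose. Negative replicate 4 held the highest stromal and osteoclast sums (2602 and 2837 CPM, against at most 634 and 253 CPM in the other negative libraries) and stands apart in this respect. Values without replicate number 4 are therefore given beside the results.

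None of the 31 genes passed an adjusted p under 0.05 when the group was the only term (edgeR quasi-likelihood test), where 0.0238% of all genes passed, 0.0159% as lower and 0.00793% as higher. At an unadjusted p under 0.05 there were 10 members among 2058 of the 12610 genes tested. Without the block, limma voom called 0 members among 3 genes, and the DESeq2 Wald test called 7 members, all lower in the positive libraries, among 921 genes. Same-numbered libraries deviated jointly from their group means, though in number 2 hardly more (correlation 0.28) than with another number (up to 0.23). When the replicate number entered the model as a block, 10 members passed, 8 lower and 2 higher. In that fit 15.8% of the 12610 genes tested passed, 7.81% as lower and 8.03% as higher. Without number 4, 7 members fell and 2 rose, where 20.2% of genes passed, 10.4% as lower and 9.82% as higher. The words rose and fell below refer to the fit with the block, and log2 fold changes are positive over negative with their standard error (SE). In 8 members the 4 positive and 4 negative libraries did not overlap, all with the positive ones lower, against 11.4% of all genes, 5.92% as lower and 5.46% as higher. In 10 members the positive library was the lower in each of the 4 numbers, against 19.6% of all genes. Since a gene can meet the count minimum through the group where it is high, these counts over the members support nothing further. Lama1 reached 10 counts in the negative libraries alone. Lama4, Lama5 and Cdh2 reached it in all negative libraries but in too few positive ones to enter by these.

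Among the leukocyte integrin chains, 0 of 5 passed in either direction, and their median log2 fold change was 0.02. Itgal, the alpha chain of LFA-1, which binds ICAM1, lies on chromosome 7 (127296139 to 127335137, GRCm38). It had 1225, 1232, 1113 and 1097 CPM in positive replicates 1 to 4 and 1363, 1292, 1002 and 909 CPM in negative replicates 1 to 4. The groups overlapped fully, with negative replicates 1 and 2 the highest of all and negative replicates 3 and 4 the lowest (log2 fold change 0.05, SE 0.09, adjusted p = 0.738). Itgb2, the beta2 chain that Itgal needs at the cell surface, lies on chromosome 10 (77530329 to 77565708). Its levels were 1259, 1171, 1042 and 1059.6 CPM in the positive and 1287, 1229.7, 1039 and 945 CPM in the negative replicates. The chains of LFA-1 followed the same order over the negative replicates, and Itgb2 also did not pass (0.02, SE 0.07, adjusted p = 0.894). This order was not particular to the LFA-1 chains. Itgam, which is outside the rule, and Icam1 showed it as well, whereas Itga4 and Itgb7 did not.

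Itga4, which pairs with Itgb1 or Itgb7 and binds VCAM1 and fibronectin, had 210.5, 214, 129 and 166 CPM in the positive and 268, 223, 154 and 182 CPM in the negative replicates. It was lower in the positive library of each number, by little, and did not pass (log2 fold change -0.20, SE 0.07, adjusted p = 0.0963). With upper-quartile factors, or with the DESeq2 Wald test and the block, Itga4 was called as lower. Itgb7, the partner of Itga4 and Itgae in gut-homing and intraepithelial lymphocytes, had 12.3, 11.1, 8.74 and 10.8 against 13.7, 15.2, 7.29 and 22.2 CPM. Negative replicate 4 was the highest and negative replicate 3 the lowest (-0.36, SE 0.19, adjusted p = 0.239). Itgae, known from intraepithelial T cells and some dendritic cells, was near the detection limit with 0.288, 0.138, 0.232 and 0.278 CPM in the positive and 0.149, 0.151, 0.0540 and 0.270 CPM in the negative replicates. That corresponds to 15, 8, 10 and 17 against 8, 9, 3 and 16 counts, and a difference was not detectable at this depth (adjusted p = 0.374).

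**Figure D1:**
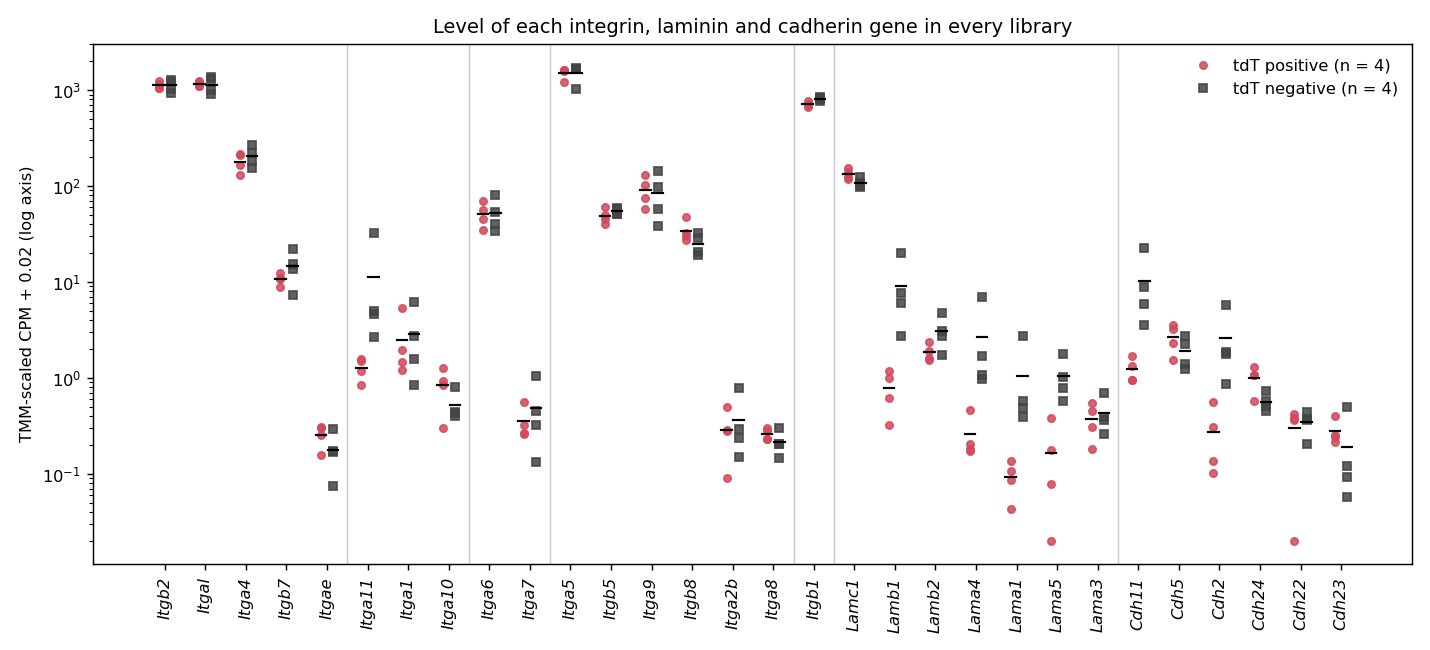
TMM-scaled CPM plus 0.02 (log axis) of 30 member genes, without Itgb3bp, in each of 4 tdT positive (circles) and 4 tdT negative (squares) libraries; short lines are group means and vertical lines separate the classes. Itgb2, Itgal, Itga5 and Itgb1 lie between 669 and 1717 CPM in all libraries. Itga11, Lamb1, Lama4, Lama1, Lama5, Cdh11 and Cdh2, and by a small margin Itgb1, lie lower in all positive libraries.

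Per gene length, the most abundant members came from both integrin classes. As RPKM (CPM per kilobase of gene length), averaged over the 8 libraries, Itgb2 stood at 395, Itga5 at 339, Itgal at 221 and Itgb1 at 181. Then came Itga4 at 19.7, Lamc1 and Itgb5 at 15.8, Itga9 at 12.3, Itgb8 at 9.55, Itga6 at 8.59 and Itgb7 at 4.74. The leukocyte members summed to 642 ± 52.5 RPKM in the positive and 638 ± 102 RPKM in the negative libraries, and the matrix-binding members to 556 ± 50.5 and 581 ± 85.8 RPKM (SD, n = 4 each). The sums of each class differed between the groups by less than the SD within a group. The next gene, Itga11, was at 1.26 RPKM, and no other member was above it.

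The members that fell all belonged to this low range. Of the 11 members at 4 RPKM or more, 0 fell and 1 rose, where 5.71% of all genes at such levels fell and 9.69% rose. Of the 20 members below 4 RPKM, 8 fell, 1 rose and 11 did not pass, where 553 of all 5038 genes below 4 RPKM fell and 279 rose. The limit of 4 RPKM was placed in the gap between Itgb7 and Itga11 after the values had been seen, so the split is a description.

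**Figure D2:**
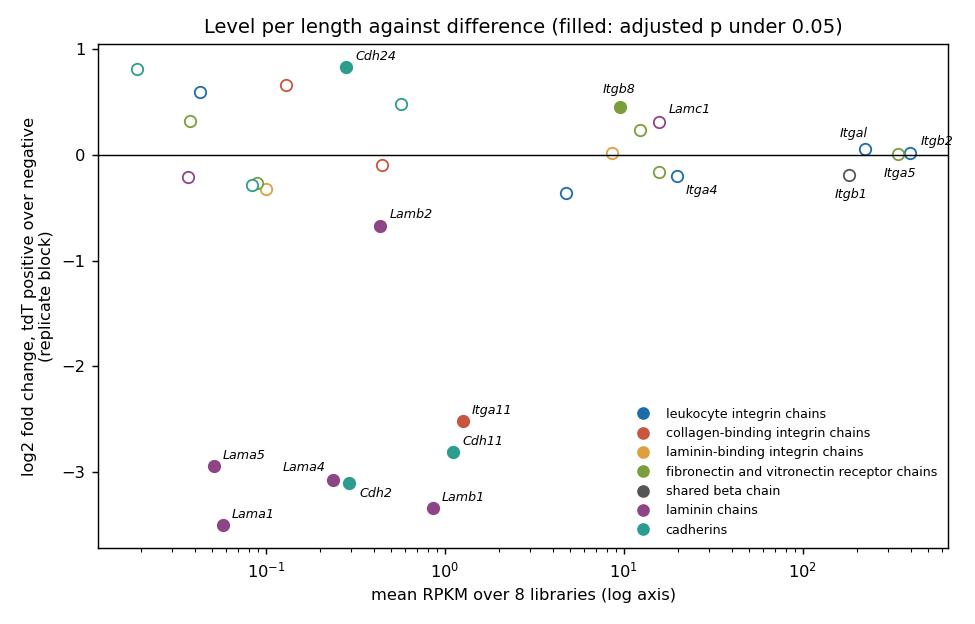
Mean RPKM over the 8 libraries (log axis) against the log2 fold change of the fit with the replicate block, for 30 member genes coloured by class; filled points passed an adjusted p under 0.05. The points to the right of 4 RPKM lie between -0.36 and 0.45, and the 7 points below -2 all lie at 1.26 RPKM or less.

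Of the 12 matrix-binding integrin chains, 1 fell, 1 rose and 10 did not pass, with a median log2 fold change of -0.04, against 0.02 in the leukocyte members and 0.01 over all genes tested. Whether the classes differ was not tested. Itga5, the alpha chain of the main fibronectin receptor, lies on chromosome 15 (103344286 to 103366791). It had 1584, 1640.1, 1217 and 1604 CPM in the positive and 1717, 1672, 1024 and 1669 CPM in the negative replicates. Replicate 3 was the lowest in both groups, and the groups did not differ beyond this spread (0.01, SE 0.09, adjusted p = 0.938). Itgb1, the beta chain shared by most matrix-binding integrins, lies on chromosome 8 (128685654 to 128733579). Its levels were 694, 762, 669 and 711 CPM in the positive and 820, 813, 768 and 839.6 CPM in the negative replicates. The ranges did not overlap, though the highest positive library lay close to the lowest negative one (762 and 768 CPM). Itgb1 did not pass (-0.19, SE 0.07, adjusted p = 0.0923), but was called as lower with upper-quartile factors and with the DESeq2 Wald test, both with the block.

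Itga11 was the matrix-binding chain that fell. It encodes the alpha chain of a receptor for fibrillar collagen, known from fibroblasts and other mesenchymal cells, and lies on chromosome 9 (62677855 to 62783979). Its levels were 1.15, 1.48, 0.812 and 1.54 CPM in the positive and 2.64, 4.99, 4.65 and 32.3 CPM in the negative replicates. All positive libraries lay below all negative ones, and negative replicate 4 held more than the other negative libraries together (log2 fold change -2.52, SE 0.50, adjusted p = 0.0196). Without number 4 the change was -1.79 (adjusted p = 0.00158), and without number 2 or 3 it did not pass (adjusted p = 0.0755 and 0.0897). The stromal markers moved in the same libraries: their median log2 difference (of CPM plus 0.1, which understates changes of low genes) was -1.70, -1.79, -3.31 and -4.32 in numbers 1 to 4, beside -1.13, -1.69, -2.38 and -4.31 for Itga11. Their part in the result was not tested. In such bulk libraries, fewer cells of a type and less RNA per cell cannot be told apart. Other alpha chains that bind collagen did not pass. Itga1 averaged 2.47 ± 1.92 and 2.82 ± 2.40 CPM, and Itga10 averaged 0.818 ± 0.406 and 0.496 ± 0.188 CPM.

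Itgb8 was the integrin chain that rose. It pairs with the alpha-v chain and is known for binding latent TGF-beta. It lies on chromosome 12 (119162803 to 119238276) and had 27.3, 29.9, 47.0 and 32.4 CPM in the positive and 20.4, 18.9, 32.0 and 28.6 CPM in the negative replicates. The groups overlapped, but the positive library was higher in each number (log2 fold change 0.45, SE 0.09, adjusted p = 0.0189). It did not pass without number 1, 2 or 3 (adjusted p = 0.0604, 0.120 and 0.0914) or when libraries were scaled by their totals. Its partner Itgav, which is outside the rule, averaged 166 ± 14.5 and 204 ± 101 CPM and did not pass (-0.19, SE 0.18, adjusted p = 0.506). Itgb5, another partner of Itgav in a vitronectin receptor, averaged 49.0 ± 8.56 and 54.5 ± 4.47 CPM (-0.16, SE 0.07, adjusted p = 0.174). Itga9, a receptor chain for tenascin-C and osteopontin, averaged 91.3 ± 32.2 and 83.7 ± 46.1 CPM (0.23, SE 0.11, adjusted p = 0.212). Itga6, the most abundant alpha chain of laminin receptors here, averaged 51.5 ± 14.7 and 52.0 ± 21.1 CPM (0.02, SE 0.11, adjusted p = 0.916). The other members of these classes, Itga7, Itga8 and Itga2b, stayed below 0.5 CPM on average in both groups, and none of them passed.

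**Figure D3:**
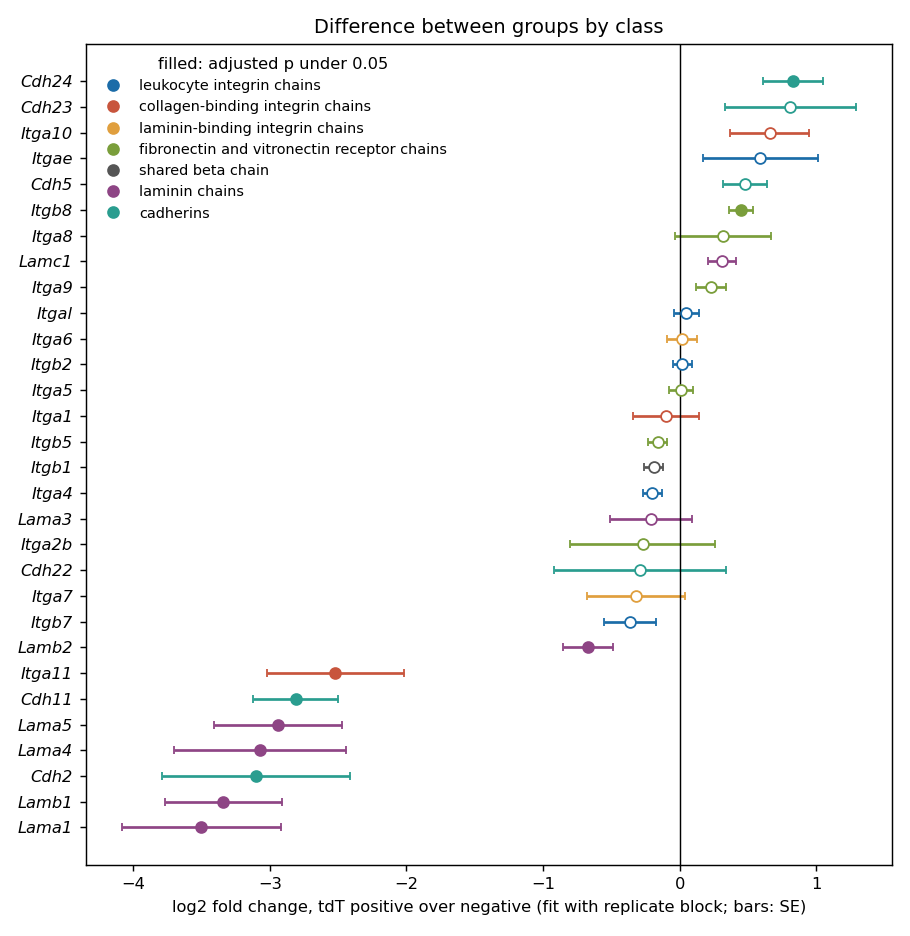
Log2 fold change of 30 member genes in the fit with the replicate block (horizontal axis, positive over negative; bars are SE), coloured by class and ordered by value; filled points passed an adjusted p under 0.05. Laminin and cadherin genes with Itga11 occupy the lower end, from -2.52 to -3.50, and the leukocyte integrin chains lie between -0.36 and 0.59 with open points.

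Of 7 laminin members, 5 fell, 0 rose and 2 did not pass, where 7.81% of all genes fell and 8.03% rose. Their median log2 fold change was -2.94 (-2.15 without number 4) against 0.01 over all genes. The 5 include Lama1, which met the count minimum through the negative libraries alone. Lama4 and Lama5 would also not have met it by their positive libraries, which held 8, 26, 8 and 10 and 3, 9, 0 and 22 counts. The class count and median therefore lean on genes that entered through the group where they are high, and are a description. Of the 13 stromal markers tested, 12 fell over the same libraries, and their part in the result was not tested. Lamb1, a beta chain of most basement membrane laminins, lies on chromosome 12 (31265146 to 31329644). It had 0.595, 1.17, 0.301 and 0.980 CPM in the positive and 2.72, 5.99, 7.56 and 20.2 CPM in the negative replicates. Every positive library lay below every negative one, and Lamb1 fell (log2 fold change -3.34, SE 0.43, adjusted p = 0.00921). It also passed without each of the numbers in turn. Its difference was smallest in numbers 1 and 2 (-2.02 and -2.26) and larger in numbers 3 and 4 (-4.25 and -4.23). Lamb2, another beta chain, had 1.53, 1.89, 1.60 and 2.34 against 1.71, 2.74, 3.03 and 4.75 CPM. Its groups overlapped and its fall was small (-0.67, SE 0.18, adjusted p = 0.0469), and it did not pass when any number was left out.

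The alpha chains Lama1, Lama4 and Lama5 fell from levels that were already low. Lama4, known from vessel walls, muscle and mesenchyme, had 0.153, 0.447, 0.186 and 0.163 CPM in the positive and 0.949, 1.04, 1.66 and 6.89 CPM in the negative replicates (log2 fold change -3.07, SE 0.63, adjusted p = 0.0210). Negative replicate 4 was highest, and without number 4 the change was -2.15 (adjusted p = 0.00655). Lama4 did not pass without number 1 or 3. Lama1, the alpha chain of the early embryonic laminin, had 0.115, 0.0860, 0.0232 and 0.0654 against 0.372, 0.554, 0.468 and 2.69 CPM (-3.50, SE 0.58, adjusted p = 0.0126, and -2.55 without number 4). The positive libraries held only 6, 5, 1 and 4 counts of it, and it did not pass without number 2 or 3.

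Lama5, the widely used alpha chain of adult basement membranes, had 0.0575, 0.155, 0 and 0.359 CPM in the positive and 0.558, 1.01, 0.756 and 1.74 CPM in the negative replicates. In positive replicate 3 the count was 0, which allows up to 0.0696 CPM. It fell (log2 fold change -2.94, SE 0.47, adjusted p = 0.0117, and -3.34 without number 4). It did not pass without number 2. Lama3, an alpha chain of epithelial laminin, averaged 0.351 ± 0.159 and 0.407 ± 0.187 CPM and did not pass (adjusted p = 0.673).

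Lamc1, the gamma chain of most laminins, was the only abundant laminin gene and did not fall. It lies on chromosome 1 (153218922 to 153332786) and had 118, 139, 153 and 125 CPM in the positive and 99.3, 108, 98.2 and 124 CPM in the negative replicates. It was higher in the positive library of each number, in number 4 by 0.01 on the log2 scale, and did not pass (0.31, SE 0.10, adjusted p = 0.0742). It was called as higher without number 4 (0.43, adjusted p = 0.0101), and, with all numbers and the block, by the DESeq2 Wald test (adjusted p = 0.0289) and with no filter on low counts (0.32, adjusted p = 0.0472).

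Per length, Lamc1 far exceeded the summed alpha and the summed beta chains. It stood at 17.5 ± 2.03 RPKM in the positive and 14.1 ± 1.59 RPKM in the negative libraries (SD, n = 4 each). The 5 alpha chain genes summed to 0.0743, 0.145, 0.0488 and 0.116 RPKM in the positive and 0.272, 0.365, 0.423 and 1.67 RPKM in the negative replicates. The 3 beta chain genes summed to 0.394, 0.551, 0.348 and 0.609 against 0.779, 1.54, 1.86 and 4.36 RPKM. Lamc1 was thus 125 to 411 times the summed alpha chain RNA in the positive libraries and 9.79 to 47.8 times in the negative ones. These ratios compare genes through the deposited gene lengths, and the alpha and beta sums include family genes below the count minimum.

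**Figure D4:**
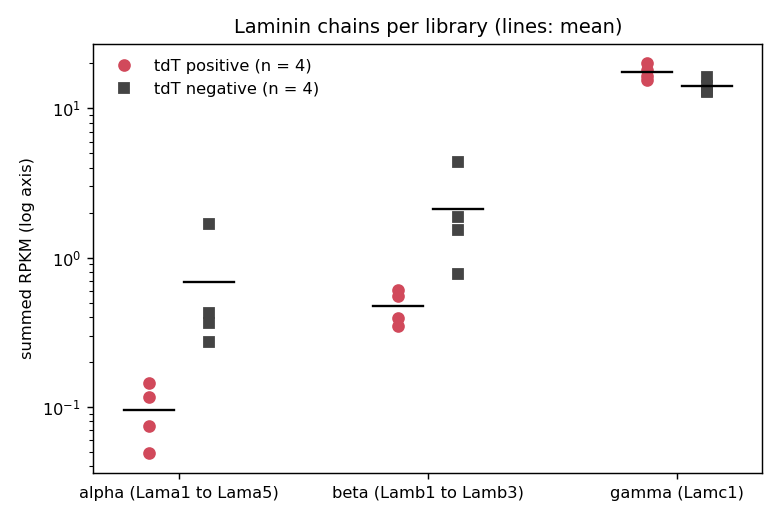
Summed RPKM (log axis) of the alpha and of the beta laminin chain genes, and RPKM of the gamma chain gene Lamc1, in each of 4 tdT positive (circles) and 4 tdT negative (squares) libraries, with group means as lines. Lamc1 lies between 12.9 and 20.0 RPKM in all 8 libraries, and the alpha chains stay at or below 1.67 RPKM.

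Among 6 cadherins, 2 fell, 1 rose and 3 did not pass, where 7.81% of all genes fell and 8.03% rose. Cdh11 and Cdh2 were lower in the same libraries as the stromal markers, whose part in these falls was not tested. Cdh11, the cadherin of mesenchymal cells and osteoblasts, lies on chromosome 8 (102632095 to 102785493). It had 0.921, 1.31, 0.928 and 1.65 CPM in the positive and 3.52, 5.86, 8.82 and 22.3 CPM in the negative replicates. The groups were apart in every library, and Cdh11 fell (-2.81, SE 0.31, adjusted p = 0.00699) and also passed without each number in turn, with values from -2.43 to -3.06. Cdh2, N-cadherin of nerve, muscle and mesenchyme, had 0.288, 0.533, 0.116 and 0.0817 against 0.838, 1.86, 1.75 and 5.78 CPM. It fell as well (-3.10, SE 0.69, adjusted p = 0.0279, and -2.19 without number 4), but did not pass without number 2 or 3. The positive libraries held 15, 31, 5 and 5 counts of Cdh2, so it met the count minimum through the negative libraries.

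Cdh24, a less studied cadherin, moved the other way at low levels. It had 1.05, 1.05, 0.557 and 1.27 CPM in the positive and 0.484, 0.554, 0.432 and 0.710 CPM in the negative replicates. The groups overlapped through positive replicate 3, and it rose (0.83, SE 0.22, adjusted p = 0.0423), though not when any number was left out. With the block, it also did not pass by the DESeq2 Wald test, upper-quartile factors or library totals (adjusted p = 0.113, 0.0507 and 0.0849). It passed with DESeq2 size factors, limma voom and no filter. Cdh5, the endothelial cadherin, averaged 2.64 ± 0.915 and 1.90 ± 0.711 CPM, was higher in the positive library of each number and did not pass (0.48, SE 0.16, adjusted p = 0.0894). Beside it, the 7 endothelial markers found in the table were low or did not pass: Tek, Emcn and Tie1 averaged at most 0.0132 CPM, and of 4 tested, 0 passed. Cdh22 and Cdh23 averaged below 0.33 CPM in both groups and did not pass.

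**Figure D5:**
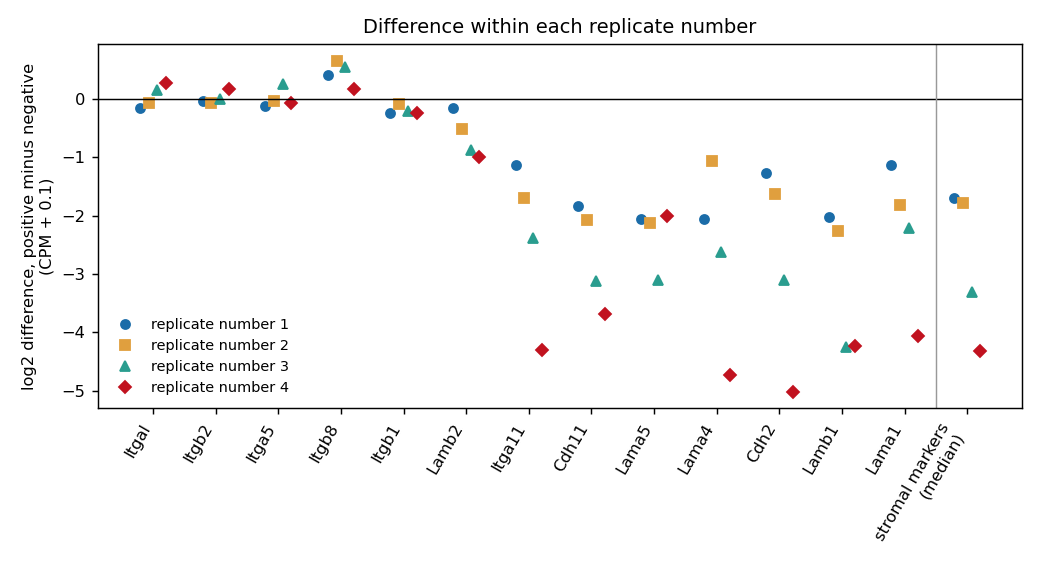
Log2 difference of CPM plus 0.1, positive minus negative, within each replicate number for 13 member genes and, at the right, for the median of the tested stromal markers. Itgal, Itgb2 and Itga5 stay between -0.15 and 0.27, whereas number 4 gives the largest difference for Itga11, Lama4, Cdh2, Lama1 and Cdh11.

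Genes just inside and outside the count minimum are given as a description. Lama1 and Itgae entered with 4 libraries at 10 counts. Genes that reached it in 3 libraries include Cdh1, Cdh26, Cdh6, Itga3 and Itgb2l. Itgb2l, a beta2-like gene of maturing neutrophils, had 0, 2, 1 and 3 counts in the positive and 102, 242, 90 and 9 counts in the negative replicates. The neutrophil marker S100a9 averaged 0.713 ± 0.677 and 102 ± 71.0 CPM and was lowest among the negative libraries in replicate 4, at 7.55 CPM, as Itgb2l was. The neutrophil markers did not all move alike. Of 5 tested, S100a9, Ngp and Ltf fell, Camp did not pass, and S100a8 rose (452 ± 68.7 and 241 ± 143 CPM).

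RefSeq (GRCm38.p6) gave a stretch of 250 bases, listed as upstream, for 19 of the 31 members. By the gene coordinates used here, the stretches of Itga9, Itgb7 and Cdh24 lie inside the genes. That of Lamb1 (31265043 to 31265292) runs past the gene's start at 31265146, and some others also overlap their gene. The motif counts are therefore not counts of upstream sequence alone. All 19 stretches were searched on both strands for short motifs, and the same search over 32851 stretches of the table gives the background. GAGGAA, a core bound by ETS factors such as PU.1, was found in 9 of the 19 against 23.3% of all. The AP-1 motif TGANTCA was found in 0 of the 19 against 6.75%. The TEAD motif GGAATG, which can share bases with the ETS core, was found in 2 of the 19 (Itga10 and Itgb1) against 12.6%. These are letter matches and name no bound factor. A pair of genes that fell and a pair that did not are shown to let the upstream letters be compared, 5′ to 3′ on the gene's strand. Each ends before the first start that RefSeq or GENCODE gives the gene, which for Itga11 is a GENCODE start upstream of the RefSeq one, and the ETS core on either strand is in capitals.
Itga11, fell, chr9:62677605-62677825, plus strand: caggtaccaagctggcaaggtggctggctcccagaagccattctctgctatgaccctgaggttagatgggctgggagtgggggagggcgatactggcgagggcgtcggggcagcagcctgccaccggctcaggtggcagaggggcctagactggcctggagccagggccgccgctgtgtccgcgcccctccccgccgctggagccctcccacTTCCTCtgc
Lamb1, fell, chr12:31265043-31265145, plus strand: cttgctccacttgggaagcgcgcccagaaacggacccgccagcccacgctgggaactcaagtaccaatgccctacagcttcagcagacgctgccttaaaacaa
Itga5, not called, chr15:103366792-103367041, minus strand: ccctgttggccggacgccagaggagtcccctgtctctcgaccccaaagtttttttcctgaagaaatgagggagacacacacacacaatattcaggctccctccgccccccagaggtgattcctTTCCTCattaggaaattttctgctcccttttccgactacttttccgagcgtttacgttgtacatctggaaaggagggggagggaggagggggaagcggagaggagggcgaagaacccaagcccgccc
Itga4, not called, chr2:79255176-79255425, plus strand: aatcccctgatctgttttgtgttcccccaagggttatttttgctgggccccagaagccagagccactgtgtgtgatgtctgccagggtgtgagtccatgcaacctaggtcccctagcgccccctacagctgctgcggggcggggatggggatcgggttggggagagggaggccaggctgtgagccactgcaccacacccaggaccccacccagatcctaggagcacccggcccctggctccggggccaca
The core appears once in Itga11, which fell, and once in Itga5, which was not called. In Lamb1 the match of the search lies in the bases left out here, and Itga4 has none.

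Genes that work with the members were read from lists of 64 genes, of which 57 were tested, 17 fell and 2 rose with the block and 0 passed without it. Each count below is to be read against the 7.81% of all genes that fell and the 8.03% that rose. Of 29 tested linkers between integrins and actin, 5 fell and 1 rose, with a median of -0.05. Tln1, the talin that activates integrins, did not pass at 1387 ± 257 and 1295 ± 315 CPM, nor did Fermt3, the kindlin of blood cells, at 694 ± 62.2 and 633 ± 122 CPM. Fermt2, Parva, Tgfb1i1 and Tln2 fell, with log2 fold changes of -3.58, -2.93, -2.74 and -2.56. Other linkers of low level did not pass, among them Lims2 (-1.61, adjusted p = 0.173), Tns1 (-0.93, adjusted p = 0.161) and Tns2 (-0.24, adjusted p = 0.744). Fermt2 averaged 1.04 ± 0.646 and 14.1 ± 10.8 CPM. Parvg, the parvin of blood cells, also fell (-0.44, SE 0.09, adjusted p = 0.0196), and Zyx, a focal adhesion protein, rose (0.27, SE 0.07, adjusted p = 0.0404).

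The falls among ligands were mainly in matrix genes, beside the stromal markers described above, whose part in the result was not tested. Of 7 tested genes listed as fibronectin, vitronectin and RGD ligands or as holders of latent TGF-beta, 5 fell and 1 rose. Fn1, fibronectin itself, had 44.1 ± 18.1 and 286 ± 299.5 CPM and fell (-2.31, SE 0.40, adjusted p = 0.0135), with 732 CPM in negative replicate 4. Lrrc32, which holds latent TGF-beta at the cell surface, fell (-2.74), as did Ltbp1, which anchors it in the matrix (-3.27). Spp1, the macrophage product osteopontin, rose (0.36, SE 0.08, adjusted p = 0.0262). Of 8 basement membrane partners of laminins, 5 fell and 0 rose, including Nid1 (-3.10), Hspg2 (-2.72), Col4a1 (-2.51) and Col4a2 (-0.75). Of 7 tested surface ligands of leukocyte integrins, 2 fell, Vcam1 (-0.45, SE 0.12) and Jam3 (-3.87, SE 0.40), the latter with 1 to 3 counts in each positive library. Jam3 was tested only because its negative libraries, with 10 to 79 counts, passed the expression filter. Icam1, the main ligand of Itgal with Itgb2, averaged 245 ± 22.3 and 244 ± 53.6 CPM and did not pass. Of 6 cadherin partners tested, 0 passed, and beta-catenin, Ctnnb1, averaged 297 ± 4.22 and 293 ± 12.5 CPM.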

How the data were processed

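The authors deposited whole-number counts per gene for 8 libraries, with gene lengths in bases. The submitters' processing notes name STAR and mm10. No source used here states the STAR version, counting tool, annotation or strand setting, and values of overlapping or antisense genes are therefore uncertain. Identifiers in the sample descriptions tied columns to samples. Labels call the libraries biological replicates and name no mouse or culture, and the p-values reflect only the variation among these libraries, which may be technical. Within groups, chi-square per degree of freedom was 54 to 759, so no library repeated another.

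With edgeR 4.0.16, 12610 genes passed its expression filter (at least 10 counts per library at the median depth, 15 in total). They were scaled by TMM and compared by its quasi-likelihood test, with Benjamini-Hochberg adjustment over all genes tested and a threshold of 0.05. The SE is the fold change divided by the root of the F statistic. Library depth is 49850537 to 58516454 counts. The main design has the group alone. Deviations of libraries with the same number correlated by 0.63, 0.28, 0.62 and 0.56 in numbers 1 to 4. The highest correlations with another number were 0.15, 0.23, -0.04 and -0.12, so the data hardly set number 2 apart. The numbers were taken to pair the libraries, from the data and shared numbering rather than a stated mouse. The fit with the block is reported, and its calls rest on this pairing. Scripts were tested on simulated data. Alternatives were DESeq2 1.42.0, limma 3.58.1 voom, other scalings and filters, and leaving out libraries. Members and lists were chosen with earlier results of these data known. Named genes are members called in either fit, all leukocyte chains, the most abundant member of each other class, and called genes of the linked lists (at most 4 per list). Others are named for context after their values were seen. Upstream sequences come from RefSeq, GRCm38.p6. Stromal, osteoclast, endothelial, neutrophil and macrophage markers are given in the report. Of 1 epithelial, 3 megakaryocyte and 1 T cell markers tested, only the megakaryocyte gene Gp1bb passed (-2.06).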

Additional observations from a re-analysis of the deposited data

Results flagged for a closer look

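In 9 of 62 groups of 4 libraries, 1 library lay apart from the other 3 by a gap whose share of the group's range passed Dixon's critical value. Chance flags about 1 in 20 groups. In negative replicate 4, Itga11 was at 32.3 CPM, Lama4 at 6.89, Lama1 at 2.69, Itga10 at 0.777 and Cdh23 at 0.473 CPM, each above the next library (4.99, 1.66, 0.554, 0.420 and 0.101 CPM). Replicate 3 was low for Itga5 in both groups, at 1217 CPM in the positive and 1024 CPM in the negative library, against at least 1584 and 1669 CPM elsewhere. In positive replicate 3, Cdh22 was at 0 CPM, with 0.344 CPM in the next library, and in positive replicate 2 Lama4 was at 0.447 CPM, with 0.186 CPM in the next.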

How the results depend on the processing

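Without the replicate block, 3 of 12610 genes, 0 members and 0 linked genes passed (edgeR). The DESeq2 Wald test called 921, 7 and 15, and no filter 216, 2 and 8. The replicate block gave 1998, 10 and 19. Leaving out a library without the block gave 2 to 456 genes, 0 to 6 members and 0 to 12 linked genes, the higher values without negative replicate 1 (456, 6 and 12) and without negative replicate 4 (225, 5 and 9). With the block, leaving out both libraries of a number gave 347 to 2535 genes (1023, 347, 355 and 2535 without numbers 1 to 4), 3 to 9 members (6, 3, 3 and 9 without numbers 1 to 4) and 2 to 23 linked genes. The stricter filter left 5 members called, since 5 of the 10 were not tested. Library totals with the block gave 7 members, without Lamb2, Cdh24 and Itgb8, and 1418 genes, 422 of them higher, against 1013 of 1998. All 10 called members kept their direction in the alternatives that tested them. Near 0, the signs of uncalled genes turned. Itgal became -0.03 and -0.07 without the block (library totals, and leaving out negative replicate 3 or 4), and -0.03 and -0.01 with it. Itgb2 became -0.06, -0.02, -0.03, -0.07 and -0.04 without the block and -0.06 and -0.02 with it. Itga5, -0.01 without the block, became 0.01 (voom, replicate block), 0.06, 0.03, 0.04 and 0.09 (-0.16 to 0.09 without each library), and with the block -0.07 and -0.02. Itga6, -0.01 without the block, became 0.02 (voom, replicate block), 0.29, 0.04 and 0.13 (-0.19 to 0.29 without each library), and with the block -0.06, -0.01 and -0.12. The causes were not tested. Genes of few counts, such as Lama1 and Itgae, are limited by depth.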
